A study of Drosophila melanogaster with 2 samples.

Results

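Promoter peaks of the fly protein CG12769 were examined at 37 genes of the cell cycle and of DNA replication, out of 13945 protein-coding genes of Drosophila melanogaster. The 37 genes were listed by symbol, and all were found in the annotation. They fell into 13 cyclin and kinase genes (with the phosphatase stg and the inhibitor dap), 17 genes of the replication machinery and 7 checkpoint and E2F genes. A gene was counted as having a promoter peak when the summit of a peak, the position its list gives as the highest point, lay within 500 bp of any of its transcription start sites (TSSs). Embryos of mixed sex, 10 to 24 h old, came from a stable transgenic line that carries CG12769 with GFP at its C-terminus, and ChIP-seq was done with an antibody against GFP on sonicated chromatin. The labels give a single group of 2 biological replicates, which they number 5 and 7, so the design holds no contrast between conditions and no p-value is given. The labels do not say which promoter drives the transgene or whether the untagged protein was still made, and whole embryos mix all cell types. No control library was analysed here.

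The cell cycle runs on cyclin-dependent kinases, whose cyclin partners are made and destroyed in turn. Cyclin E with Cdk2 brings cells into S phase, Cyclin D with Cdk4 acts ahead of it, and Cyclins A and B with Cdk1 bring cells into mitosis once the phosphatase String has removed inhibitory phosphates. Before S phase the origin recognition complex, Cdc6 and Dup (the fly Cdt1) load the MCM helicase onto DNA, which geminin holds in check. The heterodimer of E2f1 and Dp turns on S phase genes and is restrained by Rbf, the fly retinoblastoma protein. In the fly, many replication genes carry E2F sites or the DRE, the element bound by the factor DREF. In embryos of this age most epidermal cells have stopped dividing, while neural precursors go on dividing and other tissues enter endocycles.

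Sequences are shown first for the promoter summits that lie outside transcribed sequence and on an arm from which sequence is printed here. The windows that reach 100 bases to each side of the summits at Cdc6 (chr3L:8634207-8634407, minus strand) and at E2f1 (chr3R:21660873-21661073, minus strand), and of the strongest peak in an E2f1 intron (chr3R:21657211-21657411, minus strand) were read from RefSeq's Release 6 genome (dm6), 5′ to 3′ on the strand of the gene. Capitals would mark any of the words searched below, and these windows held none of them.
Cdc6 promoter summit: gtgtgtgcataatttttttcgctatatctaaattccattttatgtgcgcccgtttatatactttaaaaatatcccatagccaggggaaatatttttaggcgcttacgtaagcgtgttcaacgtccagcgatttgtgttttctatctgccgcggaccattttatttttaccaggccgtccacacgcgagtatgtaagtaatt
E2f1 promoter summit: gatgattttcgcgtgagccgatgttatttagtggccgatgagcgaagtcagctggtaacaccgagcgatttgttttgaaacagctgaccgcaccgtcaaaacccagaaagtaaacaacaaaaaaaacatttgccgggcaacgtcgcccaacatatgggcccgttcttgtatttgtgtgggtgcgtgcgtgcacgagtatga
E2f1 intron summit: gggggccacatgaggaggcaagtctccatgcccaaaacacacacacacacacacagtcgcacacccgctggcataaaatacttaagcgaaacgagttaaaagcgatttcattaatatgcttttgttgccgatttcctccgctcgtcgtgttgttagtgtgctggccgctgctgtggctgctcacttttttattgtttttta

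The E2F word (TTTCCCGC or TTTGGCGC, on either strand) was found in the promoters of 7 of the 17 replication genes. None of these 7 genes had a CG12769 promoter peak in any list, but 15 of the 17 replication genes had none either. Of all protein-coding genes, 41.7% had one in any list. Whether the word and the peaks are related was not tested. Each line gives the word in capitals with 10 bases to each side, on the strand of the gene (dm6 coordinates). The site at Orc1 is not shown. The gene stg, with weaker peaks only, is set beside them.
Mcm2 (chr3R:8264996-8265023, plus strand): tagcaaacatTTTCCCGCgcattttcgc
Mcm3 (chrX:5323839-5323866, plus strand): acactacgctTTTCCCGCgaaaaaactt
Mcm6 (chrX:6674390-6674417, plus strand): tcagaaaaagGCGCCAAAaccgagcaaa
Orc5 (chr2L:13829837-13829864, plus strand): gagggaataaTTTGGCGCcatttcaatg
RnrL (chr2L:10327924-10327951, minus strand): atgactttaaTTTGGCGCctttttgtgc
PolE1 (chr3R:23348031-23348058, plus strand): tttgaaattgGCGCCAAAcgtgttactt
stg (chr3R:29255796-29255823, minus strand): aaaagctcgcGCGCCAAAatcagtggcc
The DRE (TATCGATA, a palindrome) is shown likewise for the 4 genes printed here. None of the 4 had a promoter peak in the IDR set, where 21.3% of all protein-coding genes had one. Over all protein-coding genes, the DRE was in 9.36% of promoters, and in 11.4% of those with an IDR promoter peak. Whether the DRE and the peaks are related was not tested. CycA had weaker pooled promoter peaks and Cdk2 a promoter peak in replicate 5 alone, while Orc2 and Orc5 had none in any list.
CycA (chr3L:11833572-11833599, minus strand): cgccacgaccTATCGATAgctggacagt
Cdk2 (chr3R:20735552-20735579, plus strand): aaggaattctTATCGATAtgtggcgctg
Orc2 (chr3R:13964674-13964701, plus strand): aatttaaattTATCGATAacgtatgcaa
Orc2 (chr3R:13964892-13964919, plus strand): atgtcttagtTATCGATAattcccgcca
Orc5 (chr2L:13829757-13829784, plus strand): tatttcgttaTATCGATAtttttcgatt

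Each replicate list held 30000 peaks, as did the list from the pooled replicates, and 8574 peaks, the strongest of the pooled list, made up the authors' set that passed a threshold on the irreproducible discovery rate (IDR). The value of a peak is the signal given by the authors' peak caller, on a scale that is not stated, so values are set side by side within a list only. Ranks count from the strongest peak. Read counts were not part of these lists, so the depth is unknown, and the intervals below (exact Clopper-Pearson, 95%) cover counting error only.

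Of the 37 genes, 7 had an IDR promoter peak: the cyclin gene CycE, the kinase genes Cdk4 and polo, the licensing genes dup and Cdc6, and both partners of the E2F heterodimer, E2f1 and Dp. This was 18.9% (7.96 to 35.2), against 21.3% of all protein-coding genes, so the share as a whole was near the background. When summits inside the gene were counted as well, the same 7 genes and no other had an IDR peak, against 26.1% of protein-coding genes. Another 5 genes, CycA, stg, dap, fzr and E2f2, had only weaker promoter peaks of the pooled list. Together 12 of 37 genes, or 32.4% (18.0 to 49.8), had a pooled promoter peak, against 34.9% of protein-coding genes. A further 4 had one in a single replicate's list only, and 21 had none in any list. Summits were present in both replicate lists at 11 genes, or 29.7% (15.9 to 47.0), against 31.0%, and in any of the 4 lists at 16, or 43.2% (27.1 to 60.5), against 41.7%. Of all 13945 protein-coding genes, 5820 had a promoter peak in any list and 4860 had a pooled one. The rest of the 5820 had one in replicate lists only.

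**Figure D1:**
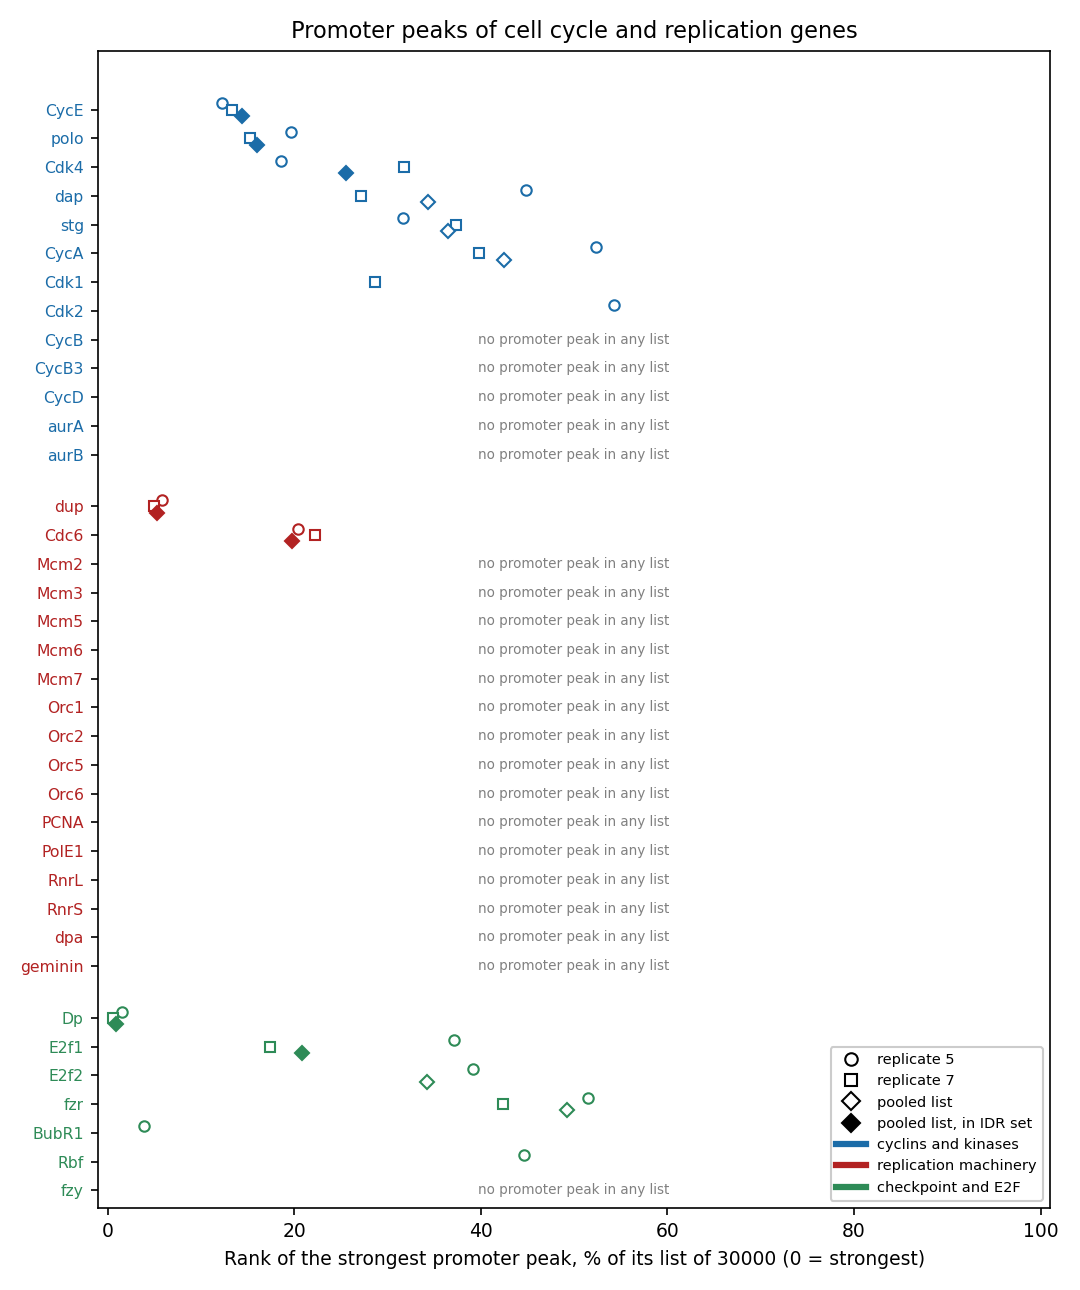
Rank of the strongest promoter peak of each gene within the lists of replicate 5, replicate 7 and the pooled replicates, as a percentage of 30000 peaks. Filled diamonds mark the 7 genes whose pooled peak is in the IDR set; of the 17 replication genes, dup and Cdc6 have symbols and the other 15 are marked as having no promoter peak in any list.

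**Figure D2:**
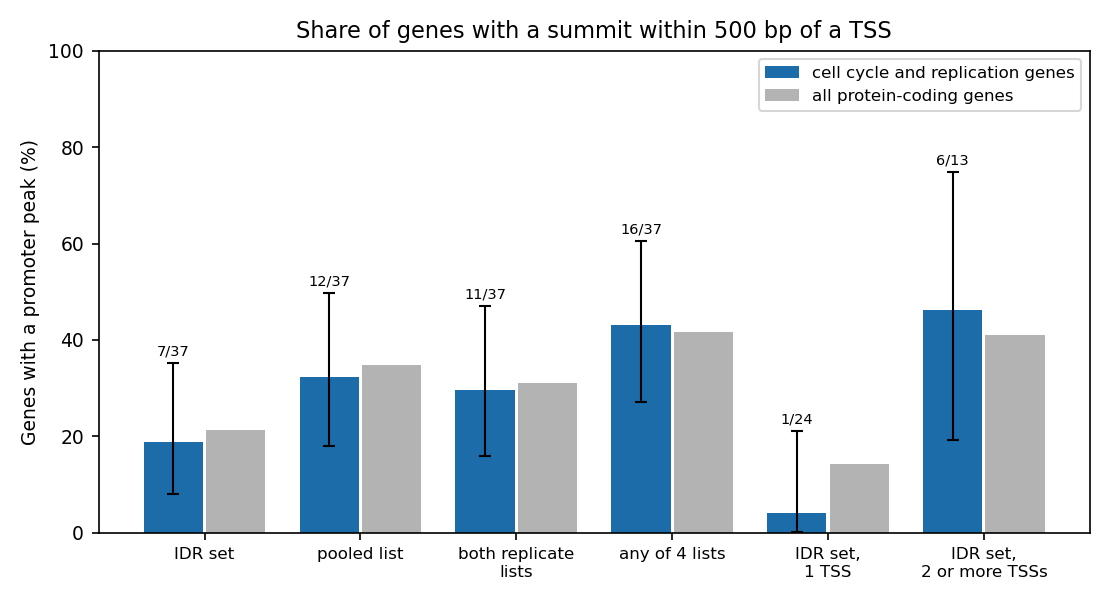
Percentage of genes with a promoter peak, for the cell cycle and replication genes (blue, with exact 95% intervals and counts) and for all protein-coding genes (grey). In each pair the grey bar lies within the interval of the blue one.

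Most of the genes with an IDR promoter peak have more than 1 TSS, which gives a gene more places to be counted. Of the 13 genes with 2 or more annotated TSSs, 6 had an IDR promoter peak, or 46.2% (19.2 to 74.9), against 1515 of 3699 protein-coding genes with as many. Of the 24 genes with 1 TSS, only Cdc6 had one, or 4.17% (0.105 to 21.1), against 14.2%. In each class the share of all protein-coding genes lay within the interval of the listed genes. The 7 genes were also longer, with a median of 5.77 kb, against 2.72 kb for the 21 genes with no promoter peak in any list. The median over all protein-coding genes was 2.17 kb, and over those with an IDR promoter peak 4.40 kb.

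Among the cyclin and kinase genes, 3 of 13 had an IDR promoter peak, or 23.1% (5.04 to 53.8), near the 21.3% of protein-coding genes. In the pooled list 6 of 13 had one, or 46.2% (19.2 to 74.9), against 34.9%. In any of the 4 lists 8 of 13 had one, or 61.5% (31.6 to 86.1), against 41.7%. These differences were not tested. The peak of CycE, which drives entry into S phase, lay at 2L:15746720-15747109 in an intron, 305 bp upstream of an internal TSS, with a value of 287 and rank 4327 in the IDR set. Its value was 144 at rank 3646 in replicate 5 and 148 at rank 5336 in replicate 7. The replicate 7 list held a second CycE promoter peak, stronger there at rank 3999, near the first TSS, which neither replicate 5 nor the pooled list had. The peak of polo, a mitotic kinase gene, lay at 3L:20309744-20310133 in the 5' UTR between its 2 TSSs, 108 bp from the second, with a value of 268 and rank 4813. In replicate 5 it ranked 5874 and in replicate 7 it ranked 4561, so both libraries placed it in the stronger part of their lists.

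Cdk4, the partner kinase of Cyclin D, was the weakest of the 7 at its promoter, yet held a stronger peak within the gene. Its promoter summit (2R:16580387-16580776) had a value of 187 and rank 7646, not far above the lowest value of the IDR set, 169.7. It ranked 5586 in replicate 5 and 9543 in replicate 7. In its introns lay 3 more IDR peaks, with values of 762, 370 and 223. The strongest of these (2R:16583934-16584168) ranked 846, with ranks of 1266 in replicate 5 and 727 in replicate 7, and lay 3222 bp downstream of the nearest Cdk4 TSS. CycD, which encodes the cyclin partner of Cdk4, had no promoter peak in any list.

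The mitotic genes of this group other than polo had weak peaks, a peak in a single replicate's list (Cdk1, described below) or none. CycB and CycB3, which encode the B-type cyclins, and aurA and aurB, the Aurora kinase genes, had no promoter peak in any list. CycA, whose product acts in S phase and mitosis, had 2 pooled promoter peaks and 4 pooled peaks inside the gene. The higher promoter peak had a value of 116 and rank 12757, 392 bp downstream of the TSS. The lower had a value of 50.75 and lay 192 bp downstream. Of the peaks inside, that of value 70.6 had its summit 67 bp upstream of a TSS of CG7264. At stg, which encodes the phosphatase that activates Cdk1, the higher of 2 pooled promoter peaks (3R:29255864-29256253) had a value of 136 and lay also within 500 bp of a TSS of CG45544. It ranked 10960 in the pooled list, 13665 in replicate 5 and 11188 in replicate 7. At dap, which encodes an inhibitor of Cyclin E with Cdk2, a pooled summit of value 144 stood 8 bp downstream of the TSS. An IDR peak of value 364 and rank 3022 lay 671 bp upstream of dap, just outside the 500 bp limit. Of the distances from each gene to its closest IDR summit, the largest inside that limit was the 305 bp of CycE.

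Among the replication genes, the 2 genes with an IDR promoter peak, dup and Cdc6, were the only ones of the 17 with a promoter peak in any list, and the other 15 had neither a promoter peak nor a peak inside the gene in any of the 4 lists. The share of the group was 11.8% (1.46 to 36.4) in the IDR set and in any list alike, against 21.3% and 41.7% of protein-coding genes. The 15 genes without a peak were the 6 MCM helicase genes (Mcm2, Mcm3, dpa, Mcm5, Mcm6 and Mcm7), the 4 listed origin recognition genes (Orc1, Orc2, Orc5 and Orc6), both ribonucleotide reductase genes (RnrL and RnrS), PCNA, the clamp that holds the polymerase on DNA, the polymerase gene PolE1 and geminin. A count of 0 of 6 MCM genes allows a share of up to 45.9%, and 0 of 4 origin recognition genes one of up to 60.2%. The split between these 15 genes and the rest was noticed in the same data, and no test was made of it. Of all 17, 13 have a single TSS, of which 1 had an IDR promoter peak.

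Both dup peaks stood at a promoter shared with a neighbour. The stronger had a value of 541 and rank 1592 in the IDR set (2R:15380653-15380805). Its value was 231 at rank 1728 in replicate 5 and 324 at rank 1511 in replicate 7. Its summit lay between the TSSs of dup, 109 bp upstream of one, and 1 bp upstream of a TSS of the neighbouring gene SRPK, an SR protein kinase gene. The second (2R:15381200-15381589, value 199, rank 7106) lay further upstream of dup and 54 bp upstream of another SRPK TSS. Both peaks were therefore nearer to SRPK, and dup lost its count when a peak counted for its closest gene alone. The Cdc6 peak, whose window is printed above, lay at 3L:8634112-8634501, 238 bp upstream of the single TSS, with a value of 230 and rank 5926. Its value was 100.2 at rank 6120 in replicate 5 and 127 at rank 6673 in replicate 7, and no other gene had a TSS within 500 bp of its summit. Inside Cdc6 lay 3 pooled peaks below the IDR set, with values from 45.9 to 95.4.

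Among the checkpoint and E2F genes, 2 of 7 had an IDR promoter peak, or 28.6% (3.67 to 71.0), against 21.3% of protein-coding genes. In any of the 4 lists 6 of 7 had one, or 85.7% (42.1 to 99.6), against 41.7%, a difference that was seen in these data and not tested. Dp, the partner shared by both E2F proteins, had the strongest promoter peak of all 37 genes. Its summit (2R:13223195-13223568) lay in an intron upstream of an internal TSS, with a value of 1403 and rank 261. In replicate 5 the peak had a value of 475 and rank 445, and in replicate 7 a value of 923 and rank 194. With it stood 3 further IDR peaks at Dp. One, of value 439, lay 67 bp upstream of the first TSS and 28 bp upstream of the TSS of Fsn, an F-box protein gene. Another, of value 496, lay within reach of lncRNA:CR43918 as well, and the last, of value 573, lay in the intron 863 bp from the nearest Dp TSS and 8 bp from the TSS of that lncRNA. In all, 577 protein-coding genes, or 4.1%, had at least as many IDR peaks as the 4 of Dp.

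E2f1, the activating E2F gene, is the longest of the 37 genes and held the most IDR peaks among them, 11 over 40.6 kb. Its promoter peak (3R:21660778-21661167, window printed above) had a value of 221 and rank 6238, and lay 102 bp upstream of the first TSS. The replicates differed there, with a value of 59.98 at rank 11133 in replicate 5 and of 149.78 at rank 5222 in replicate 7. The other 10 peaks lay inside the gene, and 9 of the 11 were in introns. They formed 3 groups along the gene, with 5 peaks from -0.1 to 4.2 kb from the 5' end, 2 peaks at 23.6 and 23.8 kb, and 4 peaks from 30.9 to 36.1 kb. The highest value, 492, stood 3.6 kb into the gene. Both peaks at 23.6 and 23.8 kb overlapped the same single peak of replicate 5. E2f1 held 0.271 IDR peaks per kb, a density that 59 of the 1013 protein-coding genes of 20 kb or more reached or passed (5.8%). The median over the 1013 genes was 0.046 per kb. E2f1 was singled out for this comparison after its peaks had been seen.

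**Figure D3:**
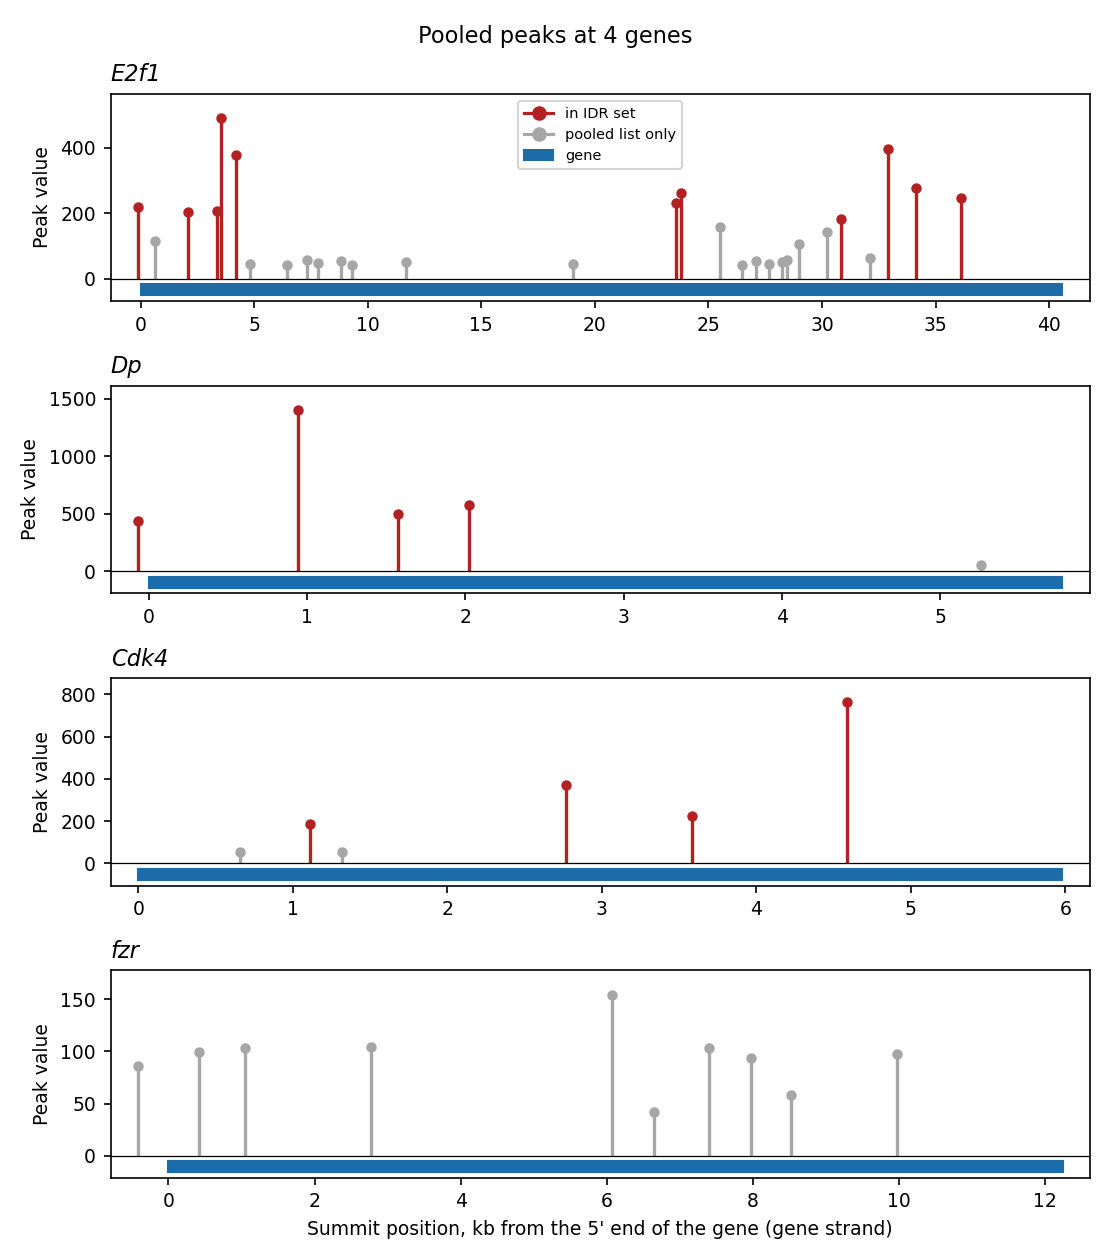
Pooled peaks along E2f1, Dp, Cdk4 and fzr, by distance of the summit from the 5' end of the gene in kb (horizontal) and the authors' peak value (vertical, with its own scale in each panel). Red stems are in the IDR set and grey ones in the pooled list only; E2f1 has 11 red stems in 3 groups, and the 10 stems of fzr are all grey.

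The other checkpoint and E2F genes had weak peaks, peaks in 1 replicate or, at fzy, none. E2f2, the repressing E2F gene, had a pooled promoter peak of value 144 (2L:21156082-21156471) whose summit lay 45 bp from its TSS and 11 bp from one of Mpp6. Replicate 5 had this peak at rank 11769, and replicate 7 had none there. At fzr, which activates the anaphase-promoting complex in G1 and endocycles, 2 pooled promoter peaks had values of 99.7 and 86.2, and 8 more lay in the gene. The related activator gene fzy, which acts in mitosis, had no promoter peak in any list.

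Of the 4 genes with a promoter peak in a single replicate's list only, 3 were in replicate 5 (Cdk2, Rbf and BubR1) and 1 in replicate 7 (Cdk1, 224 bp from its TSS and 176 bp from that of mRpS7, rank 8586). The Cdk2 and Rbf peaks of replicate 5 were weak, at ranks 16276 and 13386. The peak at BubR1, a kinase gene of the spindle checkpoint, was not. It lay at 2R:5974359-5974598, 100 bp upstream of the TSS, and ranked 1172 of 30000 in replicate 5, with no overlapping peak in replicate 7, the pooled list or the IDR set. The cause of this difference was not tested.

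Peaks in the IDR set and weaker peaks were told apart by value, since the set is the top of the pooled list. At the 37 genes lay 71 pooled peaks, of which 24 were in the IDR set and 47 below it. Of the 24, 15 were at E2f1 and Dp. Of the 47 weaker peaks, 28 were at E2f1 and fzr. The 24 summits fell in introns (16, of which 9 at E2f1), 5' UTRs (4) and upstream sequence (4). All 24 overlapped a peak in each replicate, a share partly set by how the IDR set was derived. For the locations and the overlap, no share over all IDR peaks is given. At promoters there were 10 IDR peaks, 9 of them upstream of the nearest TSS of the gene. Of these 9, 4 lay upstream of the whole gene and the others inside it, before an internal TSS. No share over all promoter summits is given for this count. The summits of the 10 peaks lay a median of 12 bp from that of the replicate 5 peak and 9 bp from that of the replicate 7 peak. The 14 weaker promoter peaks had values from 45.1 to 144.5. The median best promoter value of the 7 genes was 268.1, against 356.1 over the 2975 protein-coding genes with one.

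Promoter peaks shared with a neighbouring gene were found at dup and Dp, 2 of the 7 genes or 28.6% (3.67 to 71.0), against 40.3% of protein-coding genes with an IDR promoter peak. Of the 37 genes, 14 had another gene's TSS within 500 bp of their own, or 37.8%, against 34.4% of protein-coding genes.

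Distances to the closest peak were taken for all genes. The closest IDR summit lay a median of 5.16 kb from the nearest TSS of the 37 genes, against 6.15 kb over all protein-coding genes. For pooled summits the medians were 4.16 kb and 2.69 kb. Among the 21 genes with no promoter peak in any list, the closest IDR summit was from 1945 bp away, at PolE1, to 99.5 kb away, at aurB, with a median of 6.19 kb.

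**Figure D4:**
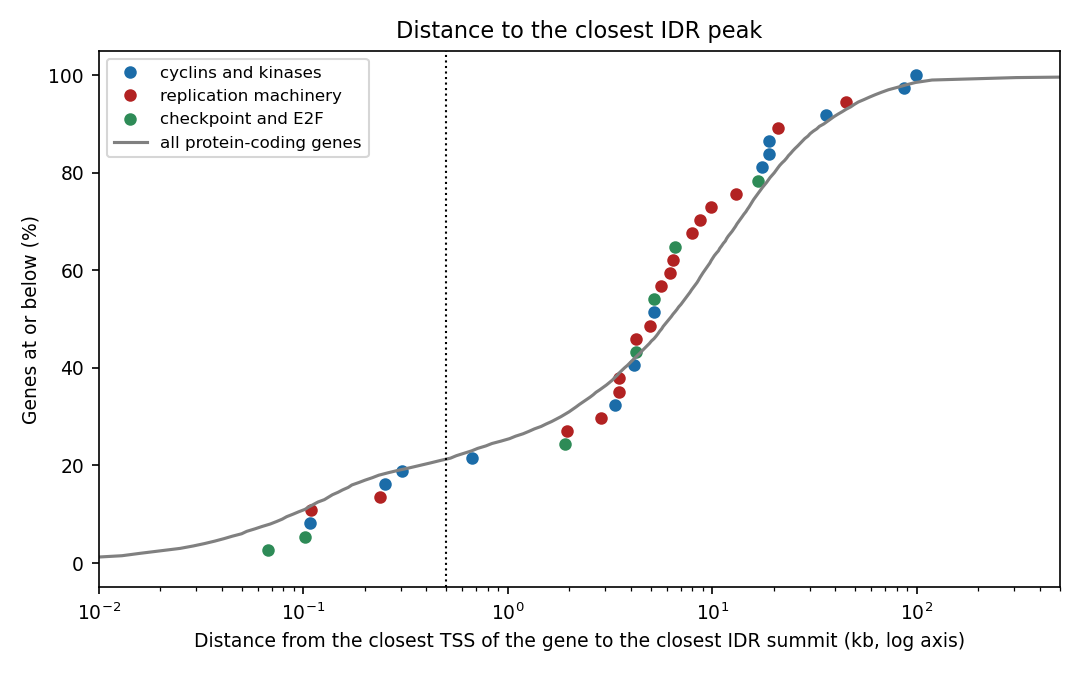
Cumulative percentage of genes by distance in kb (log axis) from their closest TSS to the closest IDR summit, with a point for each of the 37 genes coloured by role and a grey line for all protein-coding genes. The dotted line is the 500 bp limit, and 7 points lie left of it.

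Words of known factors were counted in promoters from 250 bases before to 50 after the 5' end of each gene, on both strands. The E2F word was in 7 of 17 replication promoters (41.2%), in 1 of 13 cyclin and kinase promoters and in 0 of 7 checkpoint and E2F promoters, against 3.76% of all protein-coding promoters and 4.71% of those with an IDR promoter peak. The DRE was in 6 of 37 promoters (16.2%; BubR1, Cdk2, CycA, Orc2, Orc5 and PCNA), against 9.36% of all. The word of the promoter factor M1BP (GGTCACACT) was in 6 of 37 (16.2%), against 6.05%, the GAGA word (GAGAGAG) in 2 (CycE and dap), against 5.87%, and the E-box (CACGTG) in 0, against 4.20%. Among the 7 genes with an IDR promoter peak, the promoters held the GAGA word at CycE and none of the other words. Over the 2975 protein-coding genes with an IDR promoter peak, the GAGA word was in 10.6% of promoters and the DRE in 11.4%. The M1BP word was in 7.46% of them and the E-box in 4.10%. These windows miss several of the summits. The IDR promoter summits of CycE (1235 bp into the gene), Cdk4 (1112 bp) and polo, and the strongest of Dp and dup, lay past them. In the 100 bases to each side of the 10 promoter summits of the 7 genes, the E2F word and the M1BP word were each found once, both at dup. The shares were 3.37% and 2.47% over the 3447 promoter summits of the IDR set. The DRE was in 0 of 10, against 4.06%. A match describes the letters in the window and is not a bound site.

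**Figure D5:**
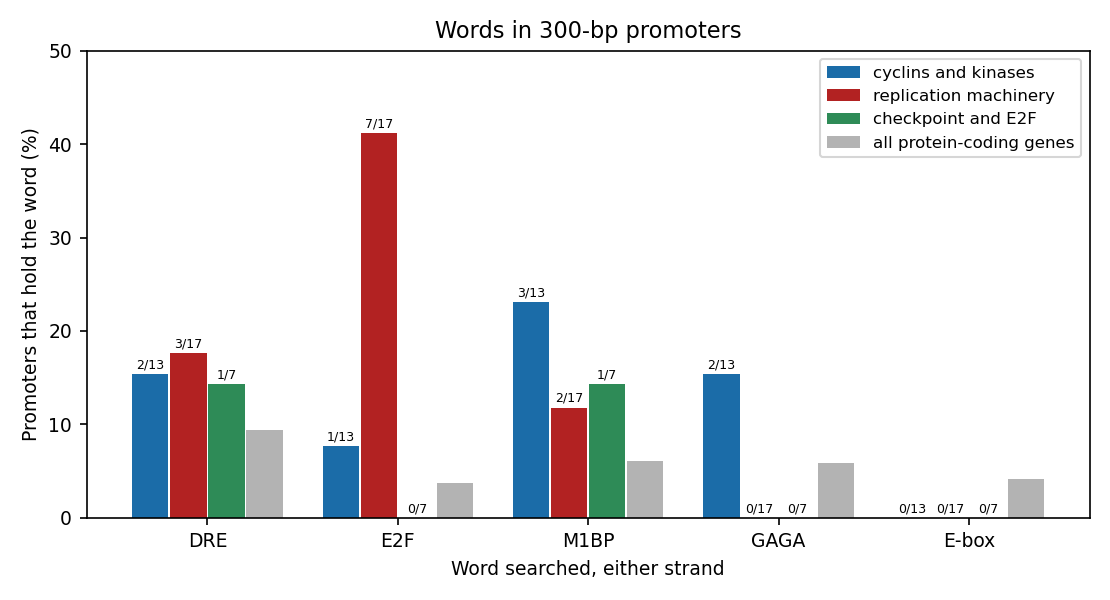
Percentage of promoters (250 bases before to 50 after the 5' end of the gene) that hold each word on either strand, for the 3 role groups with counts above the bars and for all protein-coding genes in grey. The E2F word is in 7 of 17 replication promoters.

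A wider list of 102 other genes of the same processes had an IDR promoter peak at 19, or 18.6%, again near the 21.3% of all protein-coding genes. It was drawn up from textbook roles, with earlier results of these data known. Among other cyclins, kinases and phosphatases, 6 of 20 had one, led by mts, a subunit of protein phosphatase PP2A (value 469, shared with Rack1), CycG (451), Cdk12 (412, shared with SAK, the Polo-like kinase gene of centriole duplication) and tws (330). Among other replication factors, 5 of 34 had one. The strongest were Cdc7, the kinase that fires origins (370, shared with CG3226), its partner chif (268), the polymerase gene PolA1 (368) and Top2 (211). The PolA1 peak had no overlapping peak in replicate 5 and ranked 1912 in replicate 7. Among other checkpoint, anaphase-promoting complex and DREAM genes, 4 of 31 had one: Cdc16 (629, shared with orb), mad2 (368), Cdc27 (360) and ida (221). Among cohesin, condensin and separase genes, 4 of 17 had one, and pds5, a cohesin regulator, was the strongest of all those named here, with a value of 2674 and rank 63, shared with Mppe. It was followed by wapl, which releases cohesin (897), Cap-H2 (391, shared with MED7) and SMC1 (301).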

How the data were processed

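Per the notes deposited with the samples, the authors made 1 peak list per replicate and 1 from the pooled replicates, each from alignments to dm6 and a further file that is not described, and derived the IDR set from these 3 lists. The aligner, the caller and the IDR cut-off are not stated in the notes or labels. Each peak carries a deposited signal score and a −log10 q-value, both the authors' own. Only the score was used, to rank peaks within a list. The deposited summit offset gave each summit position, printed 1-based like all coordinates.

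Genes came from Ensembl release 115 on BDGP6.54, the dm6 sequence, on 6 arms without transposable elements (18164 genes, 23581 TSS positions). A TSS is the 5' end of an annotated transcript. Sequences were read from the RefSeq genome of the same assembly. Counts were made in Python 3.11.15 with pandas 2.3.3, intervals with scipy 1.17.1, and the assignment of summits to genes was tested on simulated summits. There being 1 group, no p-value was computed. The lists give no read depth. Named genes are all 37, up to 4 genes per wider list by value, and genes that share a printed peak with one of these. Older names were matched by hand for 3 genes of the wider list, and 1 name that was a synonym of fzy was dropped. The 37 genes, the wider list and the words were chosen with earlier results of these data known. Alternatives were the strongest 2143 IDR peaks, single replicates, TSS distances of 200 and 1000 bp, overlap of the whole peak, 1 gene per peak, the stronger 15000 pooled peaks and 200 bases to each side of a summit in place of 100.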

Additional observations from a re-analysis of the deposited data

How the results depend on the processing

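Of 53 recomputed counts, 40 stayed within 1.5 times the reported one. In the strongest 2143 IDR peaks, 2 genes (dup and Dp) had a promoter peak, against 7.89% of protein-coding genes; they were 0 cyclin and kinase, 1 replication and 1 checkpoint and E2F gene, and 4 genes had a peak at the promoter or inside. With a TSS distance of 200 bp, 4 of 37 genes had one, with 1 cyclin and kinase gene and 1 replication gene among the 4, against 16.9% of protein-coding genes. With 1 gene per peak, 6 of 37 genes had a promoter peak, against 17.6% of protein-coding genes. Of the replication genes, 1 (Cdc6) remained, and 0 genes shared a peak, which that setting fixes. With 200 bases to each side of the summit, the E2F word was at 2 of 10 summits, against 6.03% of the 3447 promoter summits of the IDR set. The GAGA word and the E-box were at 1 each, against 17.7% and 5.37%. Without replicate 5 and without replicate 7, as many peaks of the other replicate gave 7 genes with a promoter peak. The shares of protein-coding genes were 21.7% and 21.9%. Each time 6 of the 7 were among the reported 7: dap stood in for Cdk4 without replicate 5, and BubR1 for E2f1 without replicate 7. The pooled count was 12 and 15. The cause of these changes was not tested. For the pooled counts, and for the 4 genes with a peak at the promoter or inside, no share of protein-coding genes is given. No paired analysis was possible because there was 1 group. The lists do not show whether a gene without a peak was unbound or below the limit of detection.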

Other observations

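The gene fzr held 10 pooled peaks, of which none was in the IDR set. Of the 704 protein-coding genes with 10 or more pooled peaks, 20, or 2.84%, had no IDR peak. The strongest of the fzr peaks lay in an intron 6.1 kb from the 5' end, with a value of 155 and rank 9524 in the pooled list, and the weakest had a value of 42.2. This gene was picked after its peaks had been seen, and no test was made of it.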
